A study of Mus musculus with 9 samples.

Results

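The genes described are those of the mouse proteasome, taken as every row of the deposited expression table whose name begins with Psm, a letter from a to g, and a digit. This pattern matched 48 of the 15184 genes of the table. Of these, 46 encode subunits, activators, an inhibitor or assembly factors of the proteasome. The other 2, Psmc3ip, which encodes a recombination factor that binds Psmc3, and Psme3ip1, which encodes a protein that binds the activator Psme3, share the name only and were left out of the counts below. Psma8 and Psmb11, the subunits of testis and thymus, were not analysed here.

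RNA-Seq of the polyA+ fraction was performed on 9 libraries of mouse embryonic fibroblasts (MEFs), cells cultured from mouse embryos. The 3 Empty libraries came from MEFs with the empty vector, and the libraries titled SAM1 and SAM2, with 3 each, carry the genotype label Hnrnpk_SAM. In the study wild-type MEFs were transduced with lentiviral vectors of the synergistic activation mediator (SAM). In SAM an inactive Cas9 and a guide RNA bring transcriptional activators to a chosen gene, here Hnrnpk. The paper used 2 guides for Hnrnpk, each on its own, and a vector with a nontargeting guide as the control. It prints the same sequence for the guide sgHnrnpk2 and for the nontargeting guide. The labels do not say what distinguishes SAM1 from SAM2, or whether either is a clone. Nor do they say whether the 3 libraries of a group are separate cultures, so the p-values measure only the spread between these libraries. This spread differed between the groups. A chi-square per gene compared the replicates of a group, with about 1 for the sampling of reads alone. It was 11.5 to 13.8 in Empty, 1.46 to 9.49 in SAM1 and 1.54 to 2.33 in SAM2. Each fit used 1 estimate of the spread per gene for all groups. The normalized count of Hnrnpk averaged 25773 in Empty, 23922 in SAM1 and 26563 in SAM2, and the 6 libraries labelled Hnrnpk_SAM did not differ from Empty in it by the test used (log2 fold change -0.03, adjusted p = 0.642), while SAM1 alone was slightly lower than Empty (-0.11, adjusted p = 0.00252). The paper reports higher Hnrnpk RNA by qRT-PCR and more HNRNPK protein by Western blot in its SAM MEFs. The RNA-Seq values of the target do not show this rise and so give no check of the labels. The groups are named by their labels throughout. The values are normalized counts, that is, reads per gene divided by a size factor of the library. Between 41759636 and 49026626 reads per library lay on the genes of the table. All 12 fibroblast markers examined were in the table, of which 3 rose and 9 fell in SAM1 and 3 rose and 5 fell in SAM2, with Dcn at 23.0% and 21.5% of its Empty mean and S100a4 at 246% and 101%. Of 8 macrophage and blood cell markers 3 were in the table, and Ptprc and Adgre1 were not. In SAM1 2 of these rose, and in SAM2 1 rose and 2 fell. Of 6 endothelial and 6 epithelial markers 4 each were in the table. The 4 endothelial markers had 2 rises in SAM1 and 2 rises and 1 fall in SAM2, and the 4 epithelial markers had 4 rises in SAM1 and 1 rise and 1 fall in SAM2. The highest group mean among these was that of the endothelial receptor Kdr in SAM1, at 4693, beside 211 in Empty and 536 in SAM2. The part of other cell types in the results was not tested. In bulk RNA, fewer cells of a type and less RNA per cell cannot be told apart.

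The proteasome degrades proteins tagged with ubiquitin. Its 20S core is a barrel of rings of alpha subunits, which gate the entrance, and rings of beta subunits, of which Psmb5, Psmb6 and Psmb7 carry the catalytic sites. The 19S cap consists of a base, with 6 ATPases that unfold the substrate and scaffold subunits that bind ubiquitin, and a lid, in which Psmd14 removes the ubiquitin chain. Interferon induces the alternative catalytic subunits Psmb8, Psmb9 and Psmb10, which take the place of Psmb5, Psmb6 and Psmb7 in newly made cores, the immunoproteasome, and favour peptides that fit MHC class I.

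Most proteasome genes were lower in the libraries labelled Hnrnpk_SAM, by small amounts, while the immunoproteasome genes Psmb8 and Psmb9 were far lower. Against Empty, 10 of the 46 genes rose and 25 fell in SAM1 (adjusted p below 0.05, limma). In SAM2, 9 rose and 30 fell. With both lines as 1 group, the comparison made in the study, 5 rose and 26 fell. Changes were common in the whole table, where 74.3% of genes were called in SAM1 (37.3% higher and 36.9% lower), 70.5% in SAM2 (35.2% higher and 35.3% lower) and 53.9% in both lines together (26.8% higher and 27% lower). Of the 46 genes, 76.1% were called in SAM1, near that background, 84.8% in SAM2 and 67.4% in both lines together. Rises made up 16.1% of the calls among proteasome genes in both lines together and 49.8% among all genes. The median change of the proteasome genes was -0.15 on the log2 scale in SAM1 and -0.16 in SAM2, beside 0.01 and 0.00 over all genes. The sum of the normalized counts of a library was also lower in the SAM libraries. It was 48686625 to 49041969 in Empty, 43909125 to 44464106 in SAM1 and 45390276 to 45489906 in SAM2. As shares of these sums the falls would be smaller, and such shares were not tested. The 1518 genes of the highest 10th by mean also had medians below 0, at -0.12 in SAM1 and -0.09 in SAM2, with 60.6% called in both lines together and 32.5% of these calls rises. Under quantile normalization 14 genes rose and 19 fell in SAM1 and 7 rose and 19 fell in both lines together, so the balance of rises and falls in SAM1 depended on the scaling.

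**Figure D1:**
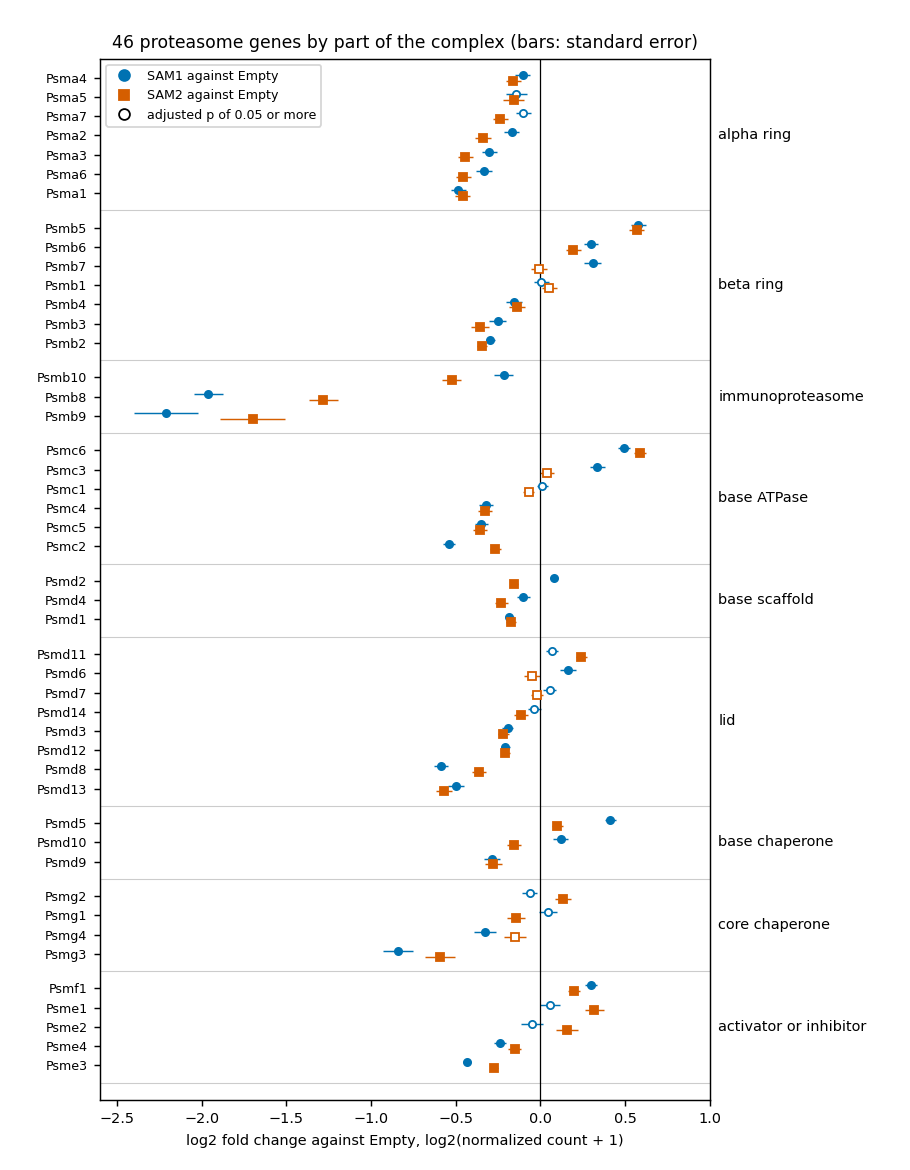
Log2 fold change against Empty of each of the 46 proteasome genes (x axis, log2 of normalized count plus 1; bars, standard error; open symbols, adjusted p of 0.05 or more) in SAM1 (circles) and SAM2 (squares), ordered by part of the complex. Psmb8 and Psmb9 lie below -1.2 in both lines, and the remaining genes lie between -0.84 and 0.59.

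The immunoproteasome showed the largest changes. Psmb8, the inducible counterpart of Psmb5, measured 459, 533 and 512 normalized counts in Empty, 137, 134 and 113 in SAM1, and 201, 209 and 206 in SAM2. The groups did not overlap, and SAM1 lay below SAM2. The log2 fold change was -1.96 ± 0.09 (SE) in SAM1 (adjusted p = 2.06e-10) and -1.28 ± 0.09 in SAM2 (adjusted p = 2.09e-08), so that the mean level was 25.6% and 40.9% of that in Empty. Psmb9, the counterpart of Psmb6, measured 79.8, 86.1 and 91.1 in Empty, 17.1, 20.7 and 15.6 in SAM1, and 19.8, 30.6 and 27.8 in SAM2. Every SAM library lay below every Empty library. Its log2 fold change was -2.21 ± 0.19 in SAM1 (adjusted p = 1.91e-07) and -1.70 ± 0.19 in SAM2 (adjusted p = 3.11e-06), and at these low counts the added pseudocount of 1 makes the fold slightly too small. Psmb10, the counterpart of Psmb7, changed less, with 840, 878 and 832 in Empty, 726, 760 and 708 in SAM1, and 594, 628 and 551 in SAM2. The 3 groups were separate, and here SAM2 was the lowest. Psmb10 fell by 0.22 on the log2 scale in SAM1 (SE 0.06, adjusted p = 0.00303) and by 0.52 in SAM2 (SE 0.06, adjusted p = 1.65e-06). In both lines together the adjusted p of Psmb10 was 0.0127, and 0.0522 without Empty replicate 2.

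The constitutive catalytic genes did not fall with them. Psmb5, which carries the chymotrypsin-like activity, measured 1436, 1575 and 1459 in Empty, 2178, 2345 and 2147 in SAM1, and 2179, 2266 and 2185 in SAM2. All 6 SAM libraries lay above Empty, and the lines overlapped. Psmb5 rose by 0.58 ± 0.05 in SAM1 (adjusted p = 7.18e-08) and by 0.57 ± 0.05 in SAM2 (adjusted p = 1.05e-07) on the log2 scale, the largest rise among the beta ring genes. Psmb6, with the caspase-like activity, measured 4457, 4690 and 4389 in Empty, 5364, 5974 and 5331 in SAM1, and 5175, 5250 and 5062 in SAM2. It rose in both lines, by 0.30 in SAM1 (adjusted p = 3.15e-05) and 0.19 in SAM2 (adjusted p = 0.00126). Over the 20 genes nearest to Psmb6 the median change was 0.26 in SAM1 and 0.30 in SAM2. Over the other genes of its chromosome, 11, it was 0.01 and 0.06. Psmb7, with the trypsin-like activity, rose in SAM1 alone among the comparisons with Empty, from 9483, 10770 and 10020 to 12200, 13360 and 11900 (log2 fold change 0.31, adjusted p = 5.96e-05). In SAM2 it measured 10040, 10110 and 9885, within the range of Empty (log2 fold change -0.01, adjusted p = 0.872), and the lines differed in it by -0.32 (SAM2 minus SAM1, adjusted p = 8.03e-05). Relative to the median of chromosome 2, Psmb7 had a log2 fold change of 0.02 in SAM1, which was not called, and fell by 0.17 in SAM2.

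**Figure D2:**
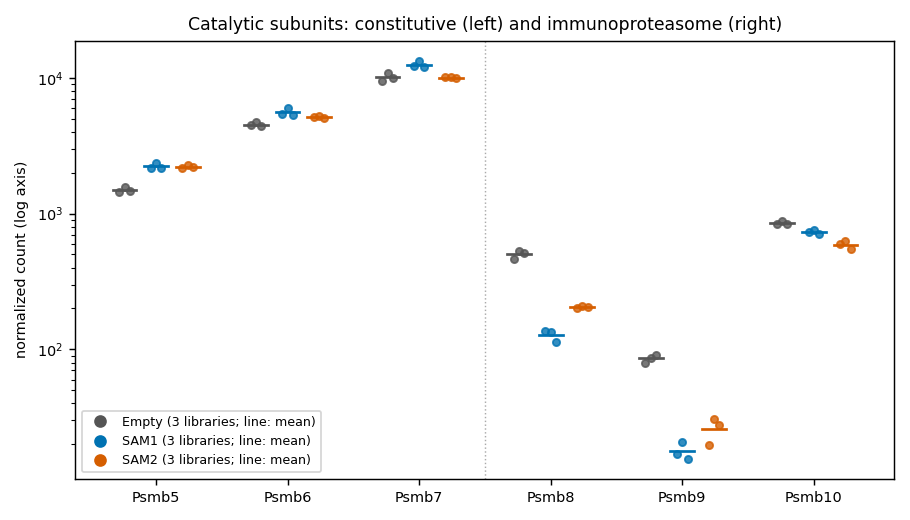
Normalized counts (y axis, log scale) of the 3 constitutive catalytic genes and their 3 immunoproteasome counterparts in each of the 9 libraries (points; lines, group means). Psmb8 and Psmb9 are lower in all 6 SAM libraries than in Empty, while Psmb5 and Psmb6 are higher in all 6.

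The balance between each inducible gene and the gene it replaces therefore shifted. Per kilobase of the canonical transcript, Psmb8 stood at 33.6% ± 1.55 (SD, n = 3) of the level of Psmb5 in Empty, 5.76% ± 0.499 in SAM1 and 9.28% ± 0.125 in SAM2. Psmb9 stood at 1.46% ± 0.118 of Psmb6 in Empty, 0.245% ± 0.0207 in SAM1 and 0.387% ± 0.0824 in SAM2. Psmb10 stood at 7.46% ± 0.327 of Psmb7 in Empty, 5.19% ± 0.131 in SAM1 and 5.22% ± 0.281 in SAM2. In each pair the 3 Empty values were the highest, and the means of both lines differed from that of Empty by far more than the SDs. The percentages depend on the transcript lengths used (with all exons merged the values in Empty were 17.7%, 1.10% and 29.4%), but the ratio between groups does not.

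Psmb8 and Psmb9 lie in the MHC region of chromosome 17, where Psmb9 is transcribed from chr17:34400960-34406738 on the minus strand and Psmb8 from chr17:34416690-34420428 on the plus strand (GRCm39). Psmb9 and Tap1, which encodes a subunit of the peptide transporter that feeds MHC class I, start back to back. The stretch between their first bases is shown because both genes fell. It is chr17:34187331-34187555 of GRCm38.p6, 225 bases, plus strand, from RefSeq, and it ends 1 base before the first base of Tap1. Capitals mark a CCAAT box and the reverse complement of a GC box (GGGCGG), the motifs found of the 4 searched.
Psmb9 to Tap1: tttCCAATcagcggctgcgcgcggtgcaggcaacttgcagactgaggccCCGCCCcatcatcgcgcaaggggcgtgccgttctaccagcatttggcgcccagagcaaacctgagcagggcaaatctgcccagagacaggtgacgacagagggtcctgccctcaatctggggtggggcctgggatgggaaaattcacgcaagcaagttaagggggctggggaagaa
Both motifs are common, with CCAAT in 35.4% and GGGCGG in 55.7% of 14248 promoter windows of table genes (250 bases before the start, either strand). Tap1 fell by 1.43 in SAM1 and by 0.88 in SAM2 on the log2 scale. Over the 20 genes nearest to Psmb8 the median change was 0.22 (log2) in both lines together, and over those nearest to Psmb9 it was 0.15, medians above 0 around genes that fell.

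Genes of antigen processing and its interferon control were examined as a list of 13. In SAM1, 11 fell and 1 rose, in SAM2 11 fell, and in both lines together 10 fell and 3 were not called (medians -0.80, -0.53 and -0.74). The shares called were 92.3%, 84.6% and 76.9%, beside 74.3%, 70.5% and 53.9% of all genes. Of all genes, 36.9%, 35.3% and 27% were called lower. The gene that rose in SAM1 was Nlrc5 (0.25), an activator of MHC class I genes. B2m, the light chain of MHC class I, fell by 0.75 in SAM1 and by 0.73 in SAM2 on the log2 scale. Tap1, Nlrc5 and the next genes were chosen after their values were seen. Tap2, the partner of Tap1, fell by 1.61 and by 1.10, and the MHC class I heavy chains H2-K1 and H2-D1 fell by 1.64 and by 1.14 in SAM1. Irf1, an interferon-induced factor, had log2 fold changes of -0.20 in SAM1 and 0.00 in SAM2. The 3 blood cell markers in the table gave log2 fold changes in SAM1 and SAM2 of 0.50 and 0.60 for Cd68, 0.16 and -1.01 for Csf1r, and 1.20 and -0.78 for Lyz2, and their part in these falls was not tested.

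The interferon-inducible activator PA28 is built of Psme1 and Psme2, and neither fell by the test used. Psme1 measured 1740, 2007 and 1821 in Empty, 1884, 2086 and 1820 in SAM1, and 2349, 2289 and 2296 in SAM2. Empty and SAM1 overlapped and SAM2 lay above both. It rose in SAM2 by 0.32 ± 0.06 (adjusted p = 0.000209), with a log2 fold change of 0.06 in SAM1 (adjusted p = 0.383). Psme2 measured 953, 1102 and 1036 in Empty, 908, 1092 and 992 in SAM1, and 1141, 1143 and 1161 in SAM2. Its change was 0.16 in SAM2 (adjusted p = 0.0452) and -0.05 in SAM1 (adjusted p = 0.519), and the call in SAM2 was lost under 7 of 16 alternatives. Both genes lie next to each other on chromosome 14, where the median over the other 508 genes was 0.55 in both lines together. Relative to the median of chromosome 14 in each line, both genes were called lower in both lines. Psme1 was then at -0.46 in SAM1 and -0.25 in SAM2, and Psme2 at -0.57 and -0.41.

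Of the other activators and the inhibitor, Psme3, the nuclear activator PA28 gamma, fell from 8287, 8295 and 8354 in Empty to 6247, 6025 and 6191 in SAM1 and 6839, 6889 and 6881 in SAM2. The 3 groups were fully separate. The log2 fold change was -0.43 ± 0.03 in SAM1 (adjusted p = 4.57e-09) and -0.27 ± 0.03 in SAM2 (adjusted p = 5.73e-07). Psme4, the activator PA200, fell by 0.24 and by 0.15. Psmf1, the inhibitor PI31, rose from 1689, 1666 and 1731 to 2028, 2127 and 2099 in SAM1 and 1911, 1944 and 1989 in SAM2, with log2 fold changes of 0.30 ± 0.03 (adjusted p = 4.13e-06) and 0.20 ± 0.03 (adjusted p = 0.000177). Relative to the median of chromosome 2 these were 0.01 and 0.04, and neither was called.

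The alpha ring moved in 1 direction. Of its 7 genes, 5 fell in SAM1, 7 in SAM2 and 6 in both lines together, and each of the others lay below 0 without passing the test, with a median log2 fold change of -0.25 in both lines. The shares called lower were thus 71.4%, 100% and 85.7%, beside 36.9%, 35.3% and 27% of all genes. Without Empty replicate 2, or under quantile normalization, 3 of the 7 were called in both lines together, and the call of Psma4 in SAM1 held under 5 of 16 alternatives. Psma1 fell most, from 6964, 7992 and 7794 in Empty to 5348, 5561 and 5310 in SAM1 and 5560, 5498 and 5457 in SAM2. The lines overlapped and lay below Empty. Its log2 fold change was -0.49 ± 0.04 in SAM1 (adjusted p = 3.23e-07) and -0.46 ± 0.04 in SAM2 (adjusted p = 6.95e-07). Psma3 and Psma6 fell by 0.30 and by 0.33 in SAM1. The beta ring was mixed. Psmb2, a subunit without a catalytic site, fell from 6199, 6386 and 6347 to 5068, 5248 and 5106 in SAM1 and 4933, 5035 and 4937 in SAM2 (log2 fold change -0.30 ± 0.03 and -0.34 ± 0.03, adjusted p = 4.69e-07 and 1.26e-07). Psmb3 and Psmb4 also fell in both lines, and Psmb1 had log2 fold changes of 0.00 and 0.05. In both lines together 2 genes of the ring rose and 3 fell (71.4% called, beside 53.9% of all genes).

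The 6 ATPases of the base divided likewise. Psmc6 measured 7675, 8424 and 8430 in Empty, 11290, 11750 and 11440 in SAM1, and 12270, 12460 and 12060 in SAM2. It rose by 0.49 ± 0.04 in SAM1 (adjusted p = 4.31e-08) and by 0.59 ± 0.04 in SAM2 (adjusted p = 9.68e-09). Psmc2 fell from 13880, 14680 and 14070 to 9651, 10230 and 9465 in SAM1 and 11770, 11970 and 11690 in SAM2, with no overlap between any groups. Its log2 fold change was -0.54 ± 0.03 in SAM1 (adjusted p = 6.86e-09) and -0.27 ± 0.03 in SAM2 (adjusted p = 9.27e-06). Psmc4 and Psmc5 were at 80.0% and 78.5% of the Empty mean in SAM1 and at 79.6% and 78.1% in SAM2, while Psmc3 rose in SAM1 (126% of Empty), was not called in SAM2 and differed between the lines (adjusted p = 4.09e-05), and Psmc1 was called in neither line. Relative to their chromosomes' medians, the changes of Psmc3 (0.05) and Psmc4 (-0.04) in SAM1 were not called. Nor were those of Psmc6, at -0.03 in SAM1 and 0.02 in SAM2, while Psmc1 was called higher in both lines together (0.12). Psmc2 and Psmc5 were called lower in both lines together under all 16 alternatives, centring among them. The RNAs of subunits that form 1 ring thus moved in different directions before this step. After it, Psmc1 still differed in direction from Psmc2 and Psmc5.

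Among the base scaffold subunits, Psmd1 fell from 14900, 15900 and 15690 to 13660, 13740 and 13510 in SAM1 and 13740, 13750 and 13730 in SAM2. The log2 fold change was -0.18 ± 0.03 in SAM1 (adjusted p = 5.62e-05) and -0.17 ± 0.03 in SAM2 (adjusted p = 0.000106). Both calls were lost relative to the median of chromosome 1. Psmd2, the partner scaffold of Psmd1, stood at 106% of Empty in SAM1 and 89.8% in SAM2, called in opposite directions, and under quantile normalization or chromosome centring its value in SAM2 was 0.00. In the lid, 4 of 8 genes fell in both lines together and 4 were not called. This share of 50% called was near the 53.9% of all genes, of which 27% were called lower. Psmd13 fell from 6324, 7022 and 6492 to 4570, 5025 and 4449 in SAM1 and 4445, 4521 and 4389 in SAM2 (log2 fold change -0.50 ± 0.05 and -0.57 ± 0.05, adjusted p = 5.02e-07 and 1.65e-07). Psmd8 was the lowest of the lid in SAM1, at 66.6% of Empty, and Psmd14, the deubiquitinase, had a log2 fold change of -0.04 in SAM1 and fell by 0.12 in SAM2.

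The assembly factors held the largest fall outside the immunoproteasome. Psmg3, a chaperone of alpha ring assembly, measured 980, 1179 and 1181 in Empty, 560, 713 and 593 in SAM1, and 706, 746 and 753 in SAM2. The SAM libraries lay below Empty and the lines overlapped. It fell by 0.84 ± 0.09 in SAM1 (adjusted p = 1.43e-06) and by 0.59 ± 0.09 in SAM2 (adjusted p = 4.52e-05). Its partner Psmg4 fell in SAM1 by 0.33 and had a log2 fold change of -0.15 in SAM2, and neither Psmg1 nor Psmg2, which act as a pair, was called in both lines together. Pomp, which guides beta ring assembly and was chosen after its values were seen, fell by 0.29 and by 0.43. Of the chaperones of the base, Psmd5 rose from 4984, 5219 and 4985 to 6571, 6932 and 6718 in SAM1 and 5508, 5426 and 5347 in SAM2 (log2 fold change 0.41 ± 0.03 and 0.10 ± 0.03, adjusted p = 5.14e-08 and 0.0112), and its call in both lines together (adjusted p = 0.0433) was lost under 8 of 16 alternatives. Psmd9 fell from 2531, 2857 and 2720 to 2116, 2345 and 2188 in SAM1 and 2230, 2275 and 2171 in SAM2 (log2 fold change -0.29 ± 0.05 and -0.28 ± 0.05, adjusted p = 0.000135 and 0.000185). Psmd10 rose in SAM1 and fell in SAM2. With chromosome centring the calls of Psmd9 and Psmd10 in SAM1 and of Psmd5 in SAM2 were lost.

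Where a gene lies moved with its change. The 46 genes lie on 16 chromosomes. The 5 on chromosome 14 (Psmb5, Psmc6, Psmd6, Psme1 and Psme2) had a median log2 fold change of 0.19 in both lines together, with 2 called rises and 3 genes not called, and among the other 508 genes of that chromosome 343 rose and 29 fell. The 4 on chromosome 7 all fell (median -0.47), on a chromosome whose 1081 other genes were at a median of -0.24. The 41 genes on other chromosomes than 14 had 3 rises and 26 falls, with a median of -0.19. Across the 31 constitutive subunits of the core and cap, the log2 fold change and the median of the gene's own chromosome had a Pearson's r of 0.80 and a Spearman's rho of 0.76 in SAM1, and 0.76 and 0.71 in SAM2, as a description over genes that share libraries and chromosomes. Taking the chromosome's median away lowered the SD of the 31 log2 fold changes in both lines together from 0.273 to 0.169. The rises of Psmb5 and Psmc6 were then 0.03 and -0.01, and neither was called. The falls of Psmb8 (-1.77) and Psmb9 (-2.09) were at least as large as before. After centring, 4 of the 46 rose and 28 fell in SAM1, and 3 rose and 31 fell in SAM2. The shares of all genes called that are given above belong to the fit without centring, so these counts have no background beside them. Of the 31 constitutive subunits, 24 lay under the median of their chromosome in both lines together.

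**Figure D3:**
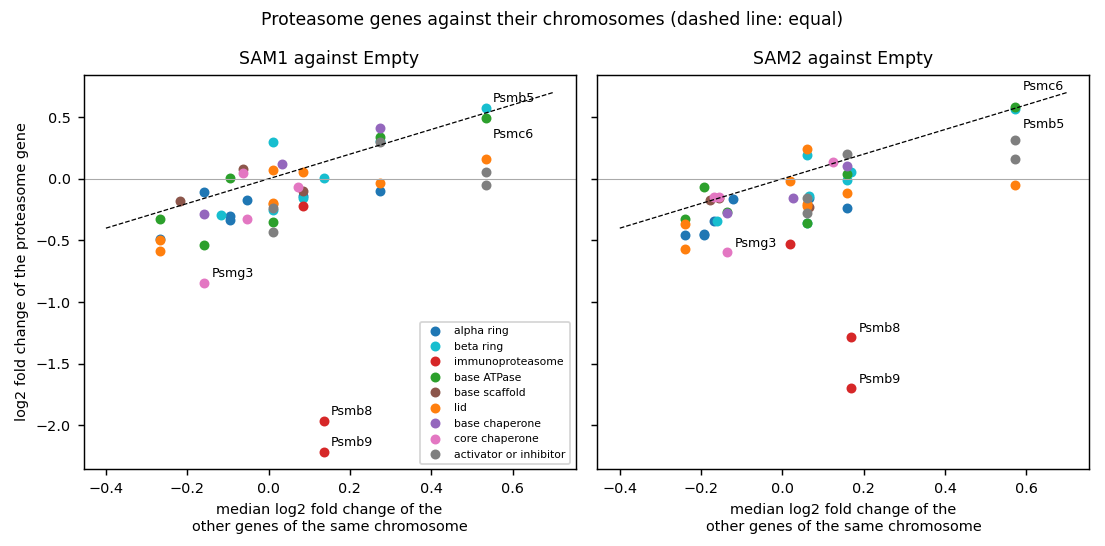
Log2 fold change of each of the 46 proteasome genes (y axis) against the median log2 fold change of the other genes of its chromosome (x axis) in SAM1 (left) and SAM2 (right), coloured by part of the complex; on the dashed line they are equal. Psmb5 and Psmc6 lie near the line at a chromosome 14 median above 0.5, and Psmb8 and Psmb9 lie far below it.

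Nfe2l1, a transcription factor made at the endoplasmic reticulum, is known to raise proteasome genes as a group when the proteasome is impaired, through antioxidant response elements. Of the 11 genes listed for this control, 2 rose and 4 fell in both lines together, or 54.5% called, near the 53.9% of all genes. Nfe2l1 itself and Nfe2l3 were picked after their values were seen. Nfe2l1 averaged 32873 normalized counts in Empty, 16974 in SAM1 and 24923 in SAM2, and fell by 0.95 and by 0.40. Its relative Nfe2l3 fell by 2.04 and by 1.03 from a lower level, and Nfe2l2 rose by 0.35 and by 0.29. The core of the element, TGACNNNGC on either strand, was found in the 250 bases before the start of 5 of 39 proteasome genes with a promoter window, and in 11.6% of all windows, a similar share. The 5 matches are shown with the bases around them because both rising and falling genes are among them (RefSeq, GRCm38.p6, in the direction of the gene, the match in capitals).
Psmb5, chr14:54618024-54618052, minus strand: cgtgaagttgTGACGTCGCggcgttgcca
Psmb6, chr11:70525338-70525356, plus strand: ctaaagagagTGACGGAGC
Psmc6, chr14:45329587-45329615, plus strand: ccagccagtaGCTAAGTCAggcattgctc
Psmd9, chr5:123228149-123228177, plus strand: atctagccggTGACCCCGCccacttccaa
Psmd12, chr11:107479278-107479299, plus strand: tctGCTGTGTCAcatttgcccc
In Psmc6 and Psmd12 the match is on the other strand. In both lines together Psmb5, Psmb6 and Psmc6 rose and Psmd9 and Psmd12 fell. The interferon response motif GAAANNGAA was found in 3 of the 39, in 6.04% of all windows, and in none of those of Psmb8, Psmb9 and Psmb10.

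Other genes that work with the proteasome were counted by role. Of 11 further subunits and bound factors, 1 rose and 5 fell in both lines together, or 54.5% called, beside 53.9% of all genes. Of 10 genes for shuttle factors, which carry ubiquitylated proteins to the cap, and for the unfoldase Vcp and its cofactors, 1 rose and 6 fell (70% called). Rad23b, a shuttle factor, fell by 0.53 in SAM1 and by 0.50 in SAM2, and Faf2, which recruits Vcp, fell by 0.46 and by 0.39. Of 6 genes for ubiquitin and its activating enzymes, 4 fell and 2 were not called in both lines together (66.7% called).

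The lines differed from each other in 27 of the 46 genes, with 12 higher and 15 lower in SAM2 than in SAM1. In the table as a whole 60.3% of genes differed (31.1% higher and 29.2% lower), so the share was near the background. The largest differences were in Psmb8 (0.68 ± 0.09 on the log2 scale, adjusted p = 1.78e-05) and Psmb9 (0.51 ± 0.19, adjusted p = 0.0332), which were higher in SAM2, while Psmb10 was lower (-0.31 ± 0.06, adjusted p = 0.000324). The call for Psmb9 was lost under 5 of 15 alternatives. Of the 7 alpha ring genes, 4 were lower in SAM2 and 3 were not called. Without SAM1 replicate 2, 1 of the 7 was called, without SAM2 replicate 1, 2 were, and with chromosome centring the smallest adjusted p among the 7 was 0.135.

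**Figure D4:**
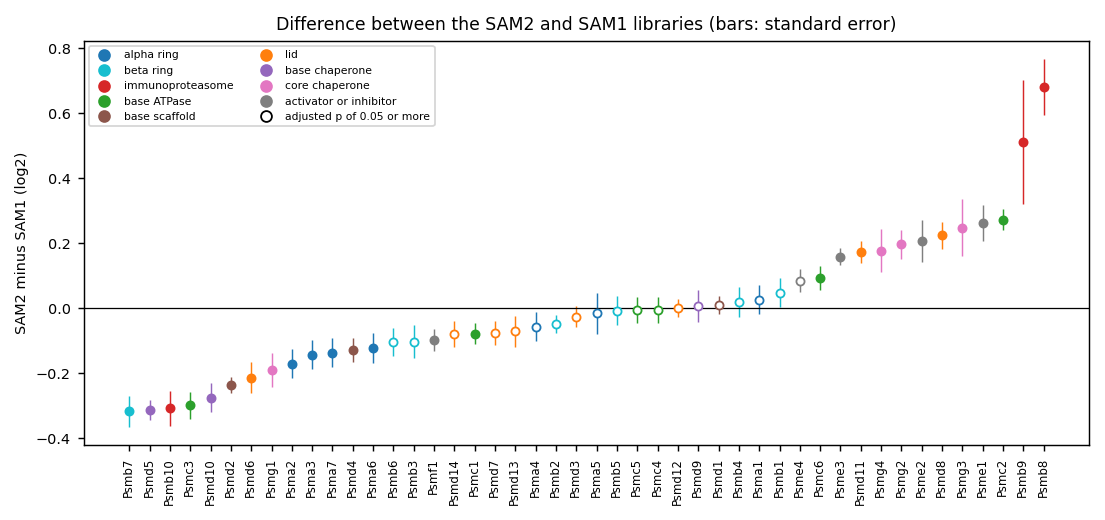
Difference between SAM2 and SAM1 on the log2 scale (y axis; bars, standard error) for each of the 46 proteasome genes, ordered by size and coloured by part of the complex (open symbols, adjusted p of 0.05 or more). Psmb8 and Psmb9 stand at the upper end and Psmb7, Psmd5 and Psmb10 at the lower.

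Within groups the proteasome genes moved together from library to library. Replicate 2 was the highest of its group for 38 of the 46 genes in Empty, 41 in SAM1 and 31 in SAM2. The median deviation of the genes from their group mean was -0.07, 0.06 and 0.01 on the log2 scale in Empty replicates 1, 2 and 3, and -0.03, 0.08 and -0.05 in SAM1, while the median over all genes stayed within 0.01 of 0 in each library. The number of genes called in both lines together was 31 with all libraries and 23 without Empty replicate 2.

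**Figure D5:**
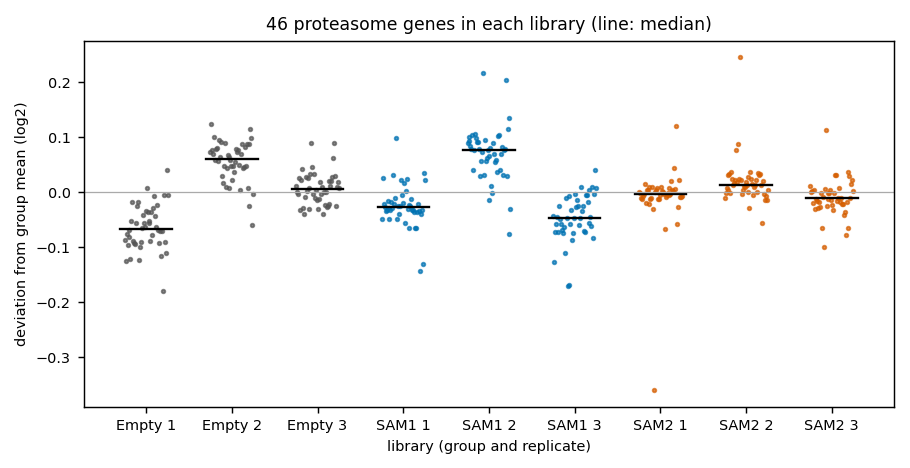
Deviation of each of the 46 proteasome genes from the mean of its group (y axis, log2) in each library (x axis; line, median). Replicate 2 lies above the other replicates in Empty and SAM1, and the spread is narrower in SAM2.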

How the data were processed

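RNA of 9 MEF libraries (3 Empty, 3 SAM1, 3 SAM2) was made into strand-directional libraries and read from both ends. Per the labels and methods, the authors checked reads with FastQC 0.11.0, aligned them to GRCm39 with TopHat2 and Bowtie, counted them with HTSeq, divided counts by DESeq2 size factors and removed low genes. The deposited values are this signal, not raw counts. In all 9 libraries 100% of values were whole reads within 0.01 read after rescaling.

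Every gene was fitted with limma 3.58.1 (R 4.3.3, empirical Bayes with a trend, two-sided) on log2(value + 1), with Benjamini-Hochberg adjustment over 15184 genes and a threshold of 0.05. A fit of 3 groups gave each line against Empty and SAM2 against SAM1, and a fit of 6 against 3 gave both lines together. SE is that of the log2 fold change. Fold changes of low genes are understated. edgeR 4.0.16 and DESeq2 1.42.0 on the recovered reads were alternatives, as were a pseudocount of 10, a mean of at least 50, quantile normalization, centring on chromosome medians, a replicate block and leaving out each library. The fits were tested on simulated data.

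Coordinates are GENCODE vM39 on GRCm39, where 14791 gene names were found once, and promoter windows are RefSeq on GRCm38.p6. The members and gene lists were chosen with earlier results of these data known. Values were given per library for the 6 catalytic genes, Psme1, Psme2 and the largest called rise and fall of each class in both lines together. Of the companion genes, the 4 with the smallest adjusted p in both lines together were to be named, of which 1 is not reported here, and others were picked after their values were seen.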

Additional observations from a re-analysis of the deposited data

Results flagged for a closer look

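The difference from Empty was not the same between SAM1 and SAM2 in 27 of the 46 proteasome genes, by the limma test of SAM2 against SAM1 over all genes. Values are SAM2 minus SAM1 on the log2 scale, n = 3 libraries per line. The 15 genes lower in SAM2 were Psmb7 (-0.32), Psmb10 (-0.31), Psmd5 (-0.31), Psmc3 (-0.30), Psmd10 (-0.27), Psmd2 (-0.24), Psmd6 (-0.21), Psmg1 (-0.19), Psma2 (-0.17), Psma3 (-0.14), Psma7 (-0.14), Psmd4 (-0.13), Psma6 (-0.12), Psmf1 (-0.10) and Psmc1 (-0.08). The 12 genes higher in SAM2 were Psmc6 (0.09), Psme3 (0.16), Psmd11 (0.17), Psmg4 (0.18), Psmg2 (0.20), Psme2 (0.21), Psmd8 (0.22), Psmg3 (0.25), Psme1 (0.26), Psmc2 (0.27), Psmb9 (0.51) and Psmb8 (0.68). Both lines were set against the same Empty libraries, and 60.3% of all genes differed between the lines. What distinguishes the lines is not given in the labels, so line and any other difference between their libraries cannot be told apart.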

How the results depend on the processing

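The number of proteasome genes called stayed within 1.5 times its value under every alternative run. It was 35 in SAM1, 39 in SAM2, 27 between the lines and 31 in both lines together. With each library left out in turn it ranged from 32 to 36, 33 to 41, 21 to 30 and 23 to 32. edgeR called 34, 40, 28 and 31 genes and DESeq2 34, 39, 25 and 32. Centring on chromosome medians turned 3 called rises into called falls, Psmd6 in SAM1 (-0.36), Psme1 in SAM2 (-0.25) and Psme2 in SAM2 (-0.41). The 20 genes nearest to Psmd6 had a median of -0.01 in SAM1, beside 0.53 over its chromosome. Those nearest to Psme1 and Psme2 had a median of 0.64 in SAM2, beside 0.57. The called fall of Psmd6 thus rests on the median of the whole chromosome, and centring on the nearest genes was not run. Quantile normalization changed the split between the lines to 11 higher and 21 lower, and in SAM1 left 11 rises and 11 falls among the 31 constitutive subunits. A mean of at least 50 removed Psmb9. Same-numbered libraries correlated by 0.05 on average in their deviations from group means (0.00237 to 0.117 over 9 pairs of libraries), so the numbers were not taken as pairs, although replicate 2 was the highest for most proteasome genes in each group. A replicate block gave 37, 40, 32 and 28 calls, and under it Psma7, Psmd5 and Psmg4 were not called in both lines together. Low depth bears on Psmb9, the lowest of the proteasome genes, and on Nfe2l3, which averaged 30.4 normalized counts in SAM1 and 62.4 in SAM2.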
